A study of Homo sapiens with 2 samples.

Results

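The keratin genes were the 55 rows of the deposited expression table, of 50868 in all, whose symbol is KRT followed by digits and at most 1 letter from A to C. Keratin pseudogenes and keratin-associated protein genes were not members. RNA had been sequenced from 2 cultures labelled HepG2, a line derived from a human liver cancer. The parental culture (genotype WT) received no treatment. The resistant culture (genotype sorafenib resistance) was selected in sorafenib, an inhibitor of several kinases, whose concentration began at 2.5 µM, was raised by 0.5 µM at a time and ended at 7 µM. Both were kept in DMEM with fetal bovine serum. There was 1 library per culture, so no value has a replicate error or a test between conditions, and every interval given covers counting error only. The parental library held 18067146 counts, and the resistant one 16811907. In such bulk RNA, more cells of a kind and more RNA per cell cannot be told apart.

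Keratins are the intermediate filament proteins of epithelial cells. A filament is built from pairs of 1 acidic type I and 1 basic type II keratin, and epithelia differ in the pairs they make. Simple epithelia carry KRT8 with KRT18. Hepatocytes are known for that pair alone, whereas bile duct cells add KRT7 and KRT19, and stratified epithelia use KRT5 with KRT14 in their basal layer. Other keratins belong to the upper layers of epidermis and mucosa, to wounded or stressed epithelium (KRT6, KRT16 and KRT17), and to hair.

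Of the 9 hepatocyte markers examined, 7 had 0 counts in both libraries, among them ALB, AFP and APOB. HNF4A had 2 and 2 counts, and the whole list 2 and 4. These values go against the HepG2 label of both libraries, and parental and resistant here name the libraries so labelled. Of the 7 bile duct markers, KRT7 was abundant, CFTR had 89 and 39 counts, KRT19 had 14 and 12, SOX9 9 and 13, SPP1 0 and 2, and EPCAM 0 in both. In the squamous list TRIM29 had 5806 and 4979 counts and SFN 2059 and 1843, while TP63 had 4 and 2 and DSG3 none. Of the 8 fibroblast and mesenchyme markers 5 were measured, VIM with 9964 and 8373 counts, COL3A1 with 3941 and 3267, COL1A1 with 2565 and 2611, PDGFRB with 509 and 566 and LUM with 93 and 216. COL1A2 and PDGFRA had none, and THY1 had 2 and 1. The summed level of that list was 942 and 897 CPM, that of the bile duct list 1904 and 2526, and that of the squamous list 437 and 411. KRT7, itself a member of the keratins, gave 1892 and 2516 CPM of the bile duct sum. From the mesothelium list MSLN had 1211 and 807 counts and UPK3B 97 and 135, with CALB2 and WT1 at 0, for a sum of 72.2 and 56.2 CPM. From the neural crest list MITF had 2773 and 3068 counts and PMEL 44 and 42, with SOX10 at 0, for a sum of 155 and 186 CPM. Their part in the keratin values was not tested.

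Keratins end their central rod with a conserved stretch of sequence. A fixed pattern for it was searched in the longest open reading frame of each member's principal transcript in GENCODE 29. It was found in 47 of 55 members, and a miss by this pattern does not show that the other 8 lack the stretch. The 48 bases around that stretch are shown for KRT18, KRT17 and KRT10, the 3 type I members with at least 10 CPM, because they show how much of it members of 1 type share. CPM (counts scaled to a common library size) were computed with TMM (trimmed mean of M values) factors. Each sequence is given 5′ to 3′ on the coding strand, on GRCh38. Capitals mark bases that all 3 share.
KRT18, type I, chr12:52952290-52952337, plus strand: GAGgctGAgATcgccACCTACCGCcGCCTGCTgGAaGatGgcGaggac
KRT17, type I, chr17:41620661-41620708, minus strand: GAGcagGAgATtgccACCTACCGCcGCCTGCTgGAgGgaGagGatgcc
KRT10, type I, coding bases 1327 to 1374 across an exon junction: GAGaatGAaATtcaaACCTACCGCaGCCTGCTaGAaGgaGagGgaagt
The 3 type I sequences shared 28 of 48 bases.

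A keratin was called expressed when it reached 1 CPM. By that rule 16 of 55 were expressed in at least 1 library, 14 in the parental and 16 in the resistant. Of all 50868 rows, 14686 were expressed in at least 1 library, a similar share. KRT16 and KRT6A were under 1 CPM in the parental library and above it in the resistant, at 0.552 and 1.25 CPM and at 0.938 and 1.07 CPM. For KRT6A these were 17 and 18 counts, with a fold interval of 0.557 to 2.36 that includes 1. KRT16 summed with its pseudogenes had 29 and 29 counts. The step from 14 to 16 is therefore no result, and the share of all rows expressed in each library was not computed. The expressed members were 7 of 29 type I and 9 of 26 type II genes. A further 7 members had more than 3 counts without reaching 1 CPM, 4 had 1 to 3 counts, and 28 had no count in either library. Over all 50868 rows, 21623 had a count in the parental library and 21742 in the resistant, so most rows had none in a given library. How many of all rows had no count in both libraries was not computed, so the 28 have no like background. For a keratin with no count, the limit set by 3 counts was 0.166 CPM (parental) and 0.179 CPM (resistant).

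At least 10 CPM was reached by 6 keratins, which held 99.3% of keratin counts in both libraries. The 95% Wilson intervals were 99.2 to 99.3 in the parental and 99.3 to 99.4 in the resistant library. These 6 keratins were KRT7, KRT8, KRT18, KRT80, KRT17 and KRT10. The share of all genes at this level was not computed. The simple epithelial keratins KRT7, KRT8 and KRT18 together with KRT80 took 97.1% of the parental and 96.4% of the resistant keratin counts. The other 49 members had 481 and 527 counts in all.

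**Figure D1:**
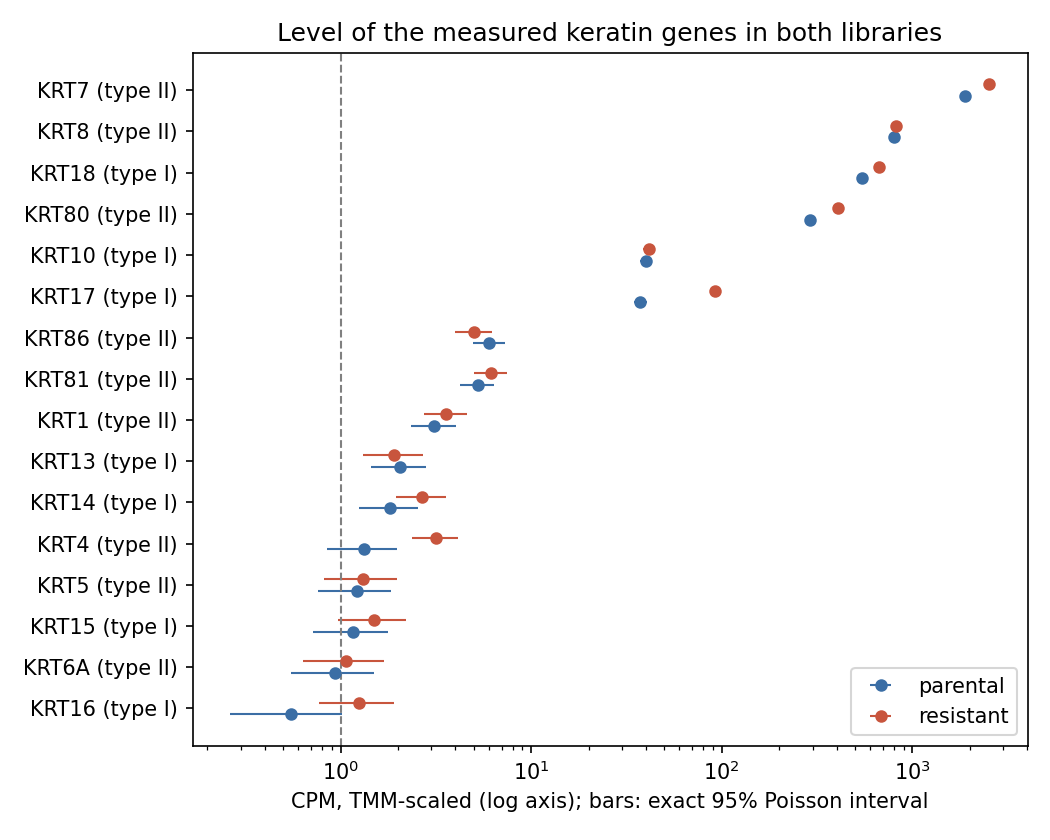
Level of the 16 expressed keratins in CPM on a log axis, with the parental library in blue, the resistant in red, and exact 95% Poisson intervals as bars. The dashed line marks 1 CPM, and 6 members lie above 10 CPM in both libraries.

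KRT7 (ENSG00000135480, chromosome 12, 52232520 to 52252186, GRCh38), a type II keratin of ducts and other simple epithelia, had 34278 parental and 42176 resistant counts. In CPM it went from 1892 to 2516, 1.33-fold (95% interval 1.31 to 1.35). It ranked 21 among all genes by parental count and 14 by resistant count. Its share of keratin counts was 52.1% (51.7 to 52.4) and 55.0% (54.7 to 55.4). Of 2575 genes at 100 CPM or more in 1 of the libraries, 131 (5.09%) had a fold at or above that of KRT7.

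KRT8 and KRT18, the pair of simple epithelia, differed in their folds. KRT8 (chromosome 12, 52897187 to 52949954) had 14470 and 13692 counts, or 799 and 817 CPM, a fold of 1.02 (0.999 to 1.05). KRT18 (chromosome 12, 52948871 to 52952901) had 9910 and 11238 counts, or 547 and 670 CPM, a fold of 1.23 (1.19 to 1.26). The counting intervals of these 2 folds do not overlap, and no replicate shows whether cultures vary by as much. The genes are neighbours on opposite strands whose annotated exons share 525 bases. The sources used here do not say whether strand was used in counting, so reads from the shared bases could have gone to either gene. KRT19, the partner of KRT7 in bile ducts, had 14 and 12 counts and stayed under 1 CPM. KRT20, a gut keratin, had 0 and 1 count, and KRT23 none.

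KRT80 (chromosome 12, 52168996 to 52192000), a type II keratin, had 5292 and 6793 counts. It stood at 292 and 405 CPM, 1.39-fold (1.34 to 1.44). KRT10 (chromosome 17, 40818117 to 40822595), which forms the filaments of upper epidermis with KRT1, had 726 and 696 counts, a fold of 1.04 (0.933 to 1.15). KRT1 itself had 56 and 60 counts and a fold of 1.16 (0.791 to 1.70). The intervals of KRT10 and KRT1 both include 1.

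KRT17 (ENSG00000128422, chromosome 17, 41619437 to 41624842), a type I keratin induced in wounded and stressed epithelium, had the largest log2 ratio of the expressed members. It had 678 parental and 1543 resistant counts. Its level went from 37.4 CPM (34.7 to 40.3) to 92.0 CPM (87.5 to 96.8), a 2.46-fold difference (2.25 to 2.70). Its rank among all genes by count went from 5982 to 2636. In the authors' deposited table its log2 fold change was 1.29.

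The size rule asked for a log2 ratio of CPM plus 1, resistant over parental, of at least 1 or at most -1. KRT17, at 1.28, was the 1 expressed keratin of 16 past it. Among all 14686 genes with at least 1 CPM in either library, 2.30% were past the rule, and 1.31% were past it as higher in the resistant library. Of these genes 0.654% had a log2 ratio above that of KRT17. With a pseudocount of 0.5 CPM in place of 1, KRT4 was also past the rule at 1.01, and with 0.1 CPM also KRT16, at 1.05. The share of all measured genes past the rule was not computed with these pseudocounts.

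**Figure D2:**
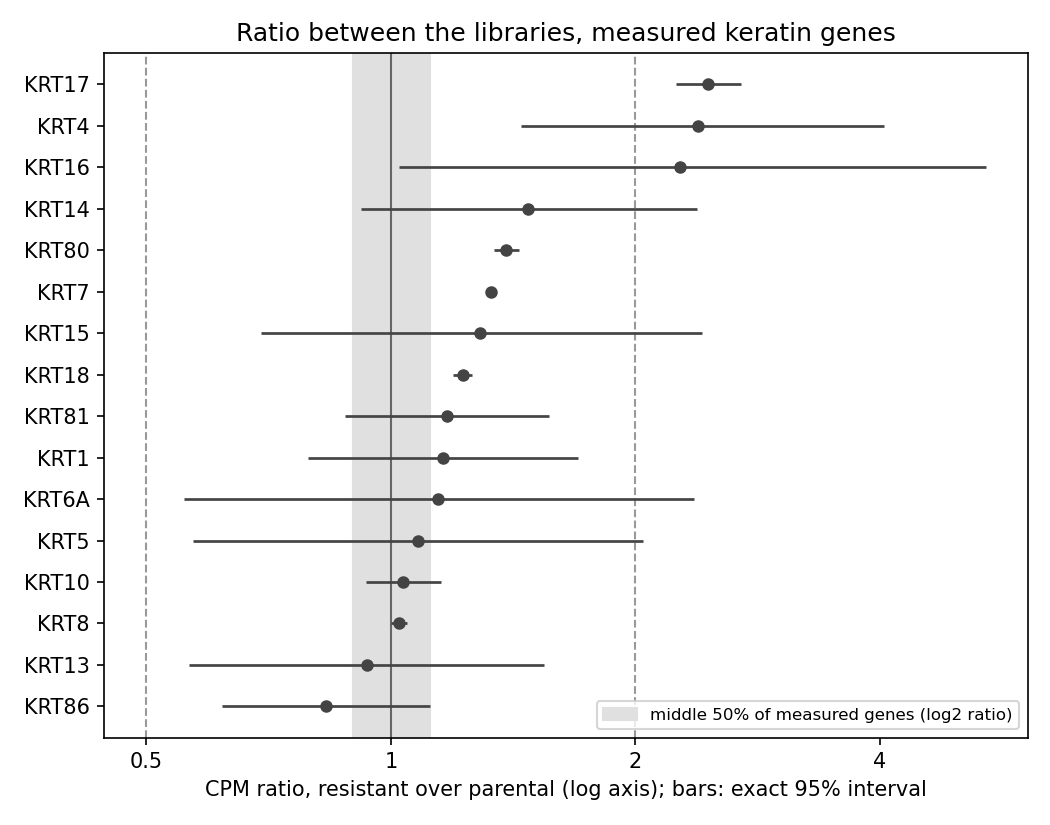
CPM ratio of resistant over parental for the 16 expressed keratins on a log axis, with exact 95% counting intervals as bars. The grey band holds the middle 50% of log2 ratios of all measured genes, and dashed lines mark ratios of 0.5 and 2. KRT17 lies above 2 with its whole interval, and the points of KRT4 and KRT16 also lie above 2, since this ratio has no pseudocount.

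The wound keratins that accompany KRT17 in epidermis were close to the detection threshold. KRT16, its type I relative, had 10 and 21 counts, a fold of 2.27 (1.02 to 5.40). KRT16 shares sequence with its pseudogenes, and KRT16 summed with them had 29 and 29 counts, a fold of 1.08 (0.623 to 1.87), an interval that includes 1. The type II partners KRT6A, KRT6B and KRT6C had 17 and 18, 4 and 4, and 4 and 5 counts. These 3 genes share 39.1%, 47.1% and 53.6% of their 50-base windows with other genes, mostly with each other, so the division of their reads is uncertain. Together the 4 wound keratins other than KRT17 had 35 and 48 counts, 1.48-fold (0.939 to 2.36), an interval that includes 1.

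Of the keratins of basal and stratified epithelia other than KRT80 and KRT10, none reached 10 CPM. KRT5 had 22 and 22 counts, KRT14 33 and 45, and KRT15 21 and 25. KRT14 shares 23.8% of its 50-base windows with other genes, most often KRT16, so its count is uncertain. Summed, these basal keratins were at 1.31-fold (0.955 to 1.80). The mucosal pair KRT4 and KRT13 had folds on different sides of 1. KRT4 had 24 and 53 counts, 2.39-fold (1.45 to 4.04), and KRT13 37 and 32 counts, 0.935-fold (0.564 to 1.54). KRT76 of the oral mucosa had 5 and 12 counts, and KRT2 of the upper epidermis 17 and 10, both under 1 CPM.

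Of the hair keratins, the type II genes KRT81 and KRT86 were expressed. KRT81 had 95 and 103 counts and a fold of 1.17 (0.878 to 1.57). KRT86 had 109 and 84 counts and a fold of 0.833 (0.619 to 1.12). Of the 50-base windows of the KRT81 transcript, 44.6% occur exactly in a transcript of another gene, mostly KRT86, and of the 100-base windows 30.3%. For KRT86 these shares were 40.5% and 28.0%, so the division of reads between the 2 genes is uncertain. Their sum was 204 and 187 counts, a fold of 0.991 (0.808 to 1.21). KRT34, a type I hair keratin, had 4 and 16 counts, a fold of 4.32 (1.39 to 17.8). That interval lies clear of 1, but KRT34 stayed under 1 CPM in both libraries and was not counted among the expressed members. KRT83 had 6 and 1 counts, and KRT84 0 and 1.

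The 28 members without a count were 17 of type I and 11 of type II. They included all 4 type I keratins of the inner root sheath of the hair (KRT25 to KRT28), all 5 type II genes of the root sheath and companion layer (KRT71 to KRT75), and 10 of the 11 type I hair keratins. The others were KRT12, KRT23 and KRT24 of type I and KRT3, KRT77, KRT78, KRT79, KRT82 and KRT85 of type II. KRT9 of palm and sole skin had 0 and 2 counts, and KRT222, an atypical member, 3 and 0. Of 94 keratin-associated protein genes, which belong to the hair shaft, 4 had a count, with 0 parental and 5 resistant counts in all.

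All 55 keratins together took 0.364% of parental counts (0.362 to 0.367) and 0.456% of resistant counts (0.453 to 0.459). Their summed CPM ratio, resistant over parental, was 1.26 (1.25 to 1.27). Without KRT7 it was 1.18-fold (1.16 to 1.20). Type I keratins summed to 1.29-fold (1.26 to 1.32) and type II to 1.25-fold (1.24 to 1.27).

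Across the 16 expressed members the log2 ratio was positive for 14 and negative for KRT13 and KRT86, against 49.7% positive among all measured genes. The median was 0.20, beside -0.0018 over all measured genes, whose middle 50% lay between -0.15 and 0.16. The keratin median was 0.10 over every member with a count and 0.35 over the 6 members with at least 10 CPM. The counting interval of the fold lay clear of 1 for 6 expressed members, KRT7, KRT18, KRT80, KRT17, KRT4 and KRT16. All 6 were higher in the resistant library. KRT16 left that set when its pseudogenes were added. Among all measured genes 42.2% had an interval clear of 1, and 21.1% one above 1. Some members can share reads, so these counts are a description of the 2 libraries.

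**Figure D3:**
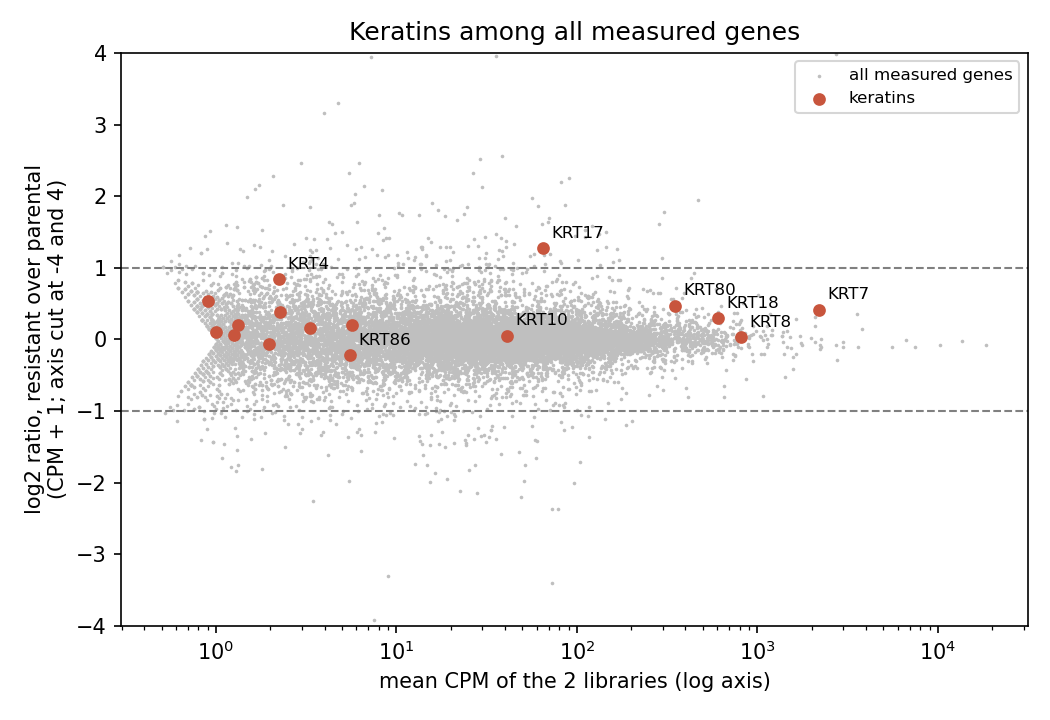
Log2 ratio of resistant over parental (CPM + 1) against the mean CPM of both libraries on a log axis, with all measured genes in grey and keratins in red. Dashed lines mark 1 and -1; KRT17 is the keratin above the upper line, and the abundant KRT7, KRT80 and KRT18 lie above 0.

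Levels of different keratins were compared per length, and the order depended on which length was used. In deposited FPKM (counts divided by a length of the gene and by the library total) the parental order was KRT7 at 278, KRT18 at 83.2, KRT8 at 56.3, KRT80 at 31.7, KRT10 at 18.9 and KRT17 at 6.77. Per kilobase of the principal transcript in GENCODE 29 it was KRT7 at 1079 CPM per kb, KRT8 at 376, KRT18 at 350, KRT80 at 75.7, KRT17 at 24.7 and KRT10 at 18.9. KRT7 led on both scales. KRT8 and KRT18 changed places in the parental library only: in the resistant library KRT18 was above KRT8 on both scales, at 101 and 57.2 FPKM and at 429 and 384 CPM per kb. Per merged exons KRT18 was above KRT8 in both libraries, with KRT8 over KRT18 at 0.683 and 0.570. KRT17 and KRT10 changed places in both libraries, with resistant levels of 16.6 and 19.5 FPKM and of 60.7 and 19.5 CPM per kb.

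The length behind the deposited FPKM was 14233 bases for KRT8, 6.69 times its principal transcript of 2126 bases. For KRT7, KRT18 and KRT17 this ratio was 3.90, 4.22 and 3.66, and for KRT10 it was 1. The length of KRT8 equals the sum of its distinct exons in GENCODE 29, in which overlapping variants of an exon each count in full, and so do those of KRT18 and KRT80. KRT7 and KRT17, at 6832 and 5545 bases, were below their sums of 6939 and 6909 bases. Among 14025 genes with at least 20 parental counts, the length equalled that sum to within 1 base for 86.1%, and, in sets that overlap, merged exons for 13.6% and the principal transcript for 13.5%. The median ratio to the principal transcript over these genes was 2.21, and 4.66% had a ratio as large as that of KRT8. Deposited FPKM therefore divides genes with many annotated transcripts by a longer length, while the ratio between libraries of 1 gene is untouched.

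The balance of the 2 filament types rested on KRT7. Type II over type I keratins summed in deposited FPKM to 3.37 (parental) and 3.40 (resistant), and to 3.87 and 3.76 per kilobase of the principal transcript. Without KRT7 the ratios in FPKM were 0.858 and 0.774, and those per principal transcript 1.16 and 0.970. KRT8 over KRT18 was 0.676 and 0.564 in FPKM. Per principal transcript it was 1.07 (parental) and 0.895 (resistant). On both scales the ratio was lower in the resistant library, as the folds of the 2 genes require.

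**Figure D4:**
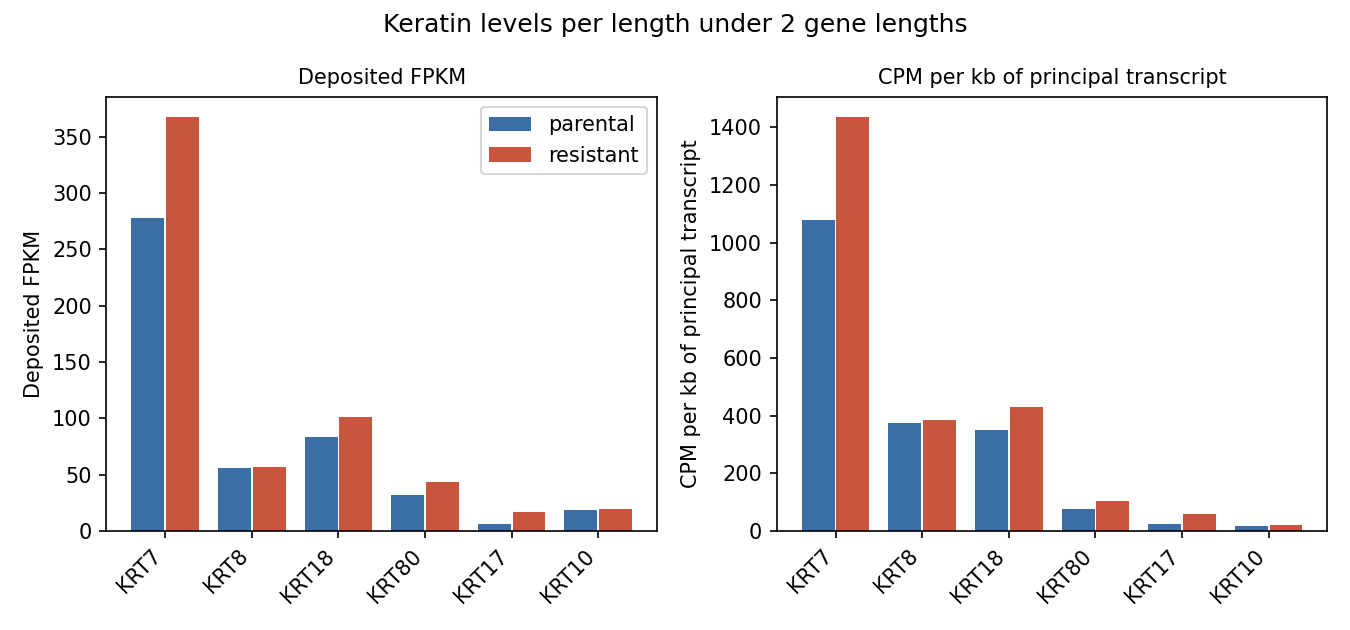
Levels of the 6 keratins with at least 10 CPM in deposited FPKM (left) and in CPM per kilobase of the principal transcript (right), parental in blue and resistant in red, with 1 library per bar. KRT18 is above KRT8 on the left, and the parental KRT8 bar is above that of KRT18 on the right.

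Processed pseudogenes of the simple keratins also received reads. The 51 KRT8 pseudogenes had 1037 and 1062 counts, 7.17% and 7.76% of the counts of KRT8 in the same library, and KRT8P3 alone had 724 and 762. The other pseudogenes with at least 1 CPM were KRT8P33 with 98 and 85 counts, KRT8P12 with 87 and 94, KRT8P10 with 63 and 44 and KRT8P45 with 28 and 34. The 66 KRT18 pseudogenes had 59 and 54 counts. Of the 50-base windows of KRT8, 32.7% occur in transcripts of 37 other genes, and of those of KRT18, 31.8% in 43 other genes. With 100-base windows these shares were 5.92% and 0%. KRT7 and KRT80 shared 0.997% and 0.420% of their 50-base windows, KRT17 17.4% of 50-base and 0.353% of 100-base windows. With pseudogenes added, KRT8 was at 1.03-fold, KRT18 at 1.22-fold and KRT17 at 2.44-fold.

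Genes that anchor or accompany keratin filaments were read against the same 2.30% of all measured genes past the size rule. A count of 0 past the rule in lists this short is no result about them. Of 14 desmosome genes 7 were measured, 4 with a positive and 3 with a negative log2 ratio and none past the size rule, at a median of 0.01. DSP, which ties keratin to the desmosome, had 7544 and 7036 counts and a log2 ratio of 0.01. PKP2 had the largest ratio at 0.54, followed by PKP3 at -0.27 and DSG2 at 0.19. All 9 plakins and keratin linkers were measured, 7 with a positive ratio and none past the rule, with EVPL at -0.55, PPL at 0.47 and MACF1 at 0.27. PLEC, the plectin gene, had 8783 and 8682 counts.

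Among 16 other intermediate filament genes 8 were measured, 3 with a positive and 5 with a negative ratio, at a median of -0.08. NES was at -0.65, SYNM at -0.41 and LMNB2 at 0.33, while VIM was at -0.14. Of 19 cornified envelope genes 3 were measured and 12 had no count, IVL, LORICRIN, SPRR1B and SPRR3 among them. TGM1 had 95 and 135 counts, CNFN 57 and 31 and S100A9 17 and 20. Of 19 epithelial transcription regulators 13 were measured, 5 positive and 8 negative and none past the rule. ZEB1, a repressor of epithelial genes, was closest to it at 0.93 with 404 and 728 counts, KLF4 was at -0.54 and SNAI2 at -0.43.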

How the data were processed

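Messenger RNA was sequenced from 1 parental and 1 resistant culture. Per the submitters' processing notes, bcl2fastq 2.19, HISAT2 2.0.4, StringTie 1.3.0 and build GRCh38 were used. The sources used here do not give the annotation, read length, counting settings or use of strand. The authors' table holds raw whole-number counts and FPKM, per the file headers. From the authors' own comparison, also deposited, the log2 fold change was read. The authors' deposited p-value and q-value columns, made by a test not named in the sources, compare 1 library with 1 library and were not used.

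Counts were scaled to CPM with edgeR 4.0.16 TMM factors (1.00 parental, 0.997 resistant) in R 4.3.3, with no model fitted. Folds are CPM ratios, with 95% bounds from the exact (Clopper-Pearson) limits on 1 library's share of both counts. Shares have Wilson intervals. Levels have exact Poisson intervals. All cover counting error only, and PCR copies are not independent molecules. Log2 ratios use a pseudocount of 1 CPM, which understates differences of low genes. Alternatives used library totals, DESeq2 1.42.0 size factors, deposited FPKM, other pseudocounts and filters. The calculation was tested on simulated data. Lengths, exon overlaps and shared windows came from GENCODE 29, in which all 55 members and 50111 of 50868 identifiers were found. The principal transcript was taken from APPRIS principal transcripts, those with a CCDS entry first and then the longest. The helix-end search was widened after it had missed KRT80.

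Named were every expressed keratin, the others with more than 3 counts, keratin pseudogenes with at least 1 CPM, the 3 measured genes of largest absolute log2 ratio in each related list and the markers of other cell types. DSP, PLEC and VIM were added after their values were seen. Some sequences and marker genes are not reported here. The members and lists were chosen with earlier results of these data known.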

Additional observations from a re-analysis of the deposited data

How the results depend on the processing

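With 1 library per group, no replicate could be left out and no variation between cultures is covered. No paired analysis was possible because each group has 1 library. The number of expressed keratins was 9 when 1 FPKM replaced 1 CPM and 6 at a threshold of 10 CPM. The number past the size rule was 2 with a pseudocount of 0.5 CPM, 3 with 0.1 CPM, 2 with a 1.5-fold rule and 6 when an interval clear of 1 replaced the rule. For the other pseudocounts and the 1.5-fold rule the share of all measured genes was not computed. For the interval it was 42.2%. The summed ratio was 1.24 with DESeq2 size factors, 1.27 with FPKM and 1.18 without KRT7. Type II over type I, parental and resistant, was 4.76 and 4.62 in CPM, 3.87 and 3.76 per principal transcript and 3.22 and 3.21 per merged exons, 0.858 and 0.774 without KRT7, and 0.676 and 0.564 for KRT8 over KRT18 alone. The length alternatives, type II over type I without KRT7, and the sum of KRT81 and KRT86 were chosen after seeing the data. Without mitochondrial genes the keratin share was 0.393% and 0.490%. The median log2 ratio was 0.10 without a CPM filter and 0.35 at 10 CPM, both inside -0.11 to 0.71, the medians of the members' lower and upper counting bounds, which include 0. These were among 19 alternatives of the summary values that stayed within such bounds, their counting interval or within 1.5 times the count. A further 21 alternatives of the summary values moved outside these limits. All 54 for the folds of single keratins stayed within the counting interval. Most of those 54 only rescaled the libraries, and folds in FPKM repeat those in library totals, so this outcome was nearly fixed. KRT16 with its pseudogenes, at 1.08, no longer had an interval clear of 1. Depth limits the low members most: the upper bound of a fold was 5.40 for KRT16 and, under 1 CPM, 17.8 for KRT34.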
